A study of Mus musculus with 200 samples.

Results

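The 10 genes described here carry out antigen presentation by major histocompatibility complex (MHC) class II, and they were chosen by name from the 38406 genes of the count table. All 10 were measured. H2-Aa, H2-Ab1 and H2-Eb1 encode class II chains, Cd74 the invariant chain, H2-DMa and H2-DMb1 the chains of the peptide-exchange factor H2-DM, and Ciita the class II transactivator. Ctsl and Ctss encode cathepsins L and S, and Ifi30 encodes the lysosomal thiol reductase GILT. Their counts were set, cell by cell, beside the class II protein that the flow cytometer recorded on the surface of the same cell (MHCII APC intensity, in arbitrary units).

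The study profiled 200 single medullary thymic epithelial cells by RNA sequencing. All cells came from female B6xNOD mice aged 5 weeks that carried an Aire-GFP transgene, which marks Aire expression, and were sorted as CD45-, Ly51-, MHCII+ and GFP+. Wild-type mice (WT) and Aire knockout mice (KO) each gave cells with high (GFPhi) and low (GFPlo) GFP, with 61 WT and 48 KO cells in the GFPhi gate and 39 WT and 52 KO cells in the GFPlo gate. Because the gate required MHCII, cells with no class II on the surface were not sampled, and the range of surface values is cut at its lower end in every group. The labels name no animal, so each group counted as 1 sample, no difference between groups was tested, and differences between animals cannot be told apart from differences between groups.

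Class II molecules are assembled in the endoplasmic reticulum as an alpha and a beta chain bound to the invariant chain, which fills the groove and directs the complex to endosomes. There cathepsins trim the invariant chain to a short peptide, H2-DM exchanges that peptide for antigen, and GILT reduces disulfide bonds of the proteins to be cut. Transcription of the chain, invariant chain and H2-DM genes depends on CIITA, which binds factors assembled on the W, X and Y boxes in front of each gene. In the thymus, class II on epithelial cells selects CD4+ T cells. Cathepsin L is the invariant chain protease known from cortical epithelium, and cathepsin S the one known from dendritic cells and B cells.

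Promoter sequences are shown first. Whether they relate to the levels or correlations given below was not tested. The RefSeq promoter table (GRCm38.p6), which covers 250 bases before to 50 bases after a gene's start, held 7 of the 10 genes. H2-Ab1, Cd74 and Ciita were not matched. Each sequence was searched on both strands for CCAAT, the core of the Y box, and AGCAAC, a part of the X box, which do not overlap each other in these windows. Capitals mark these letters, and ATTGG is CCAAT read from the other strand.
H2-Aa, chr17:34287774-34288073, minus strand: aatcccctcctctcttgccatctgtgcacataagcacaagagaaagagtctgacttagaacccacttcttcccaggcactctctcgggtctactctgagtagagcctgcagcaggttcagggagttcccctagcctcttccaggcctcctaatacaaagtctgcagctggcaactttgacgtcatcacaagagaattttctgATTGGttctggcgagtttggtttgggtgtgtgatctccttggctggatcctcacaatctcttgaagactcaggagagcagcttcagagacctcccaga
H2-Eb1, chr17:34305617-34305916, plus strand: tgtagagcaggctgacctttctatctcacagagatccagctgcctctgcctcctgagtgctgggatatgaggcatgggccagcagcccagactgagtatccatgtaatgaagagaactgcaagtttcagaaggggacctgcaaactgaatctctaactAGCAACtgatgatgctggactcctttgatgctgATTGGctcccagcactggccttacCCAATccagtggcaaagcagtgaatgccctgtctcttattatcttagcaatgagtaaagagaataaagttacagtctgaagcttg
H2-DMb1, chr17:34152941-34153240, plus strand: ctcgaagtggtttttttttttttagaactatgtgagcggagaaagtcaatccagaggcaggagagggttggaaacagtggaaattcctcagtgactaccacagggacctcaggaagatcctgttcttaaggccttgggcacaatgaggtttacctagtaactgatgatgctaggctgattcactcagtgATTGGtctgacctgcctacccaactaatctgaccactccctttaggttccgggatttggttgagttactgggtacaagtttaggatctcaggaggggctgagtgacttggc
Ctsl, chr13:64370471-64370770, minus strand: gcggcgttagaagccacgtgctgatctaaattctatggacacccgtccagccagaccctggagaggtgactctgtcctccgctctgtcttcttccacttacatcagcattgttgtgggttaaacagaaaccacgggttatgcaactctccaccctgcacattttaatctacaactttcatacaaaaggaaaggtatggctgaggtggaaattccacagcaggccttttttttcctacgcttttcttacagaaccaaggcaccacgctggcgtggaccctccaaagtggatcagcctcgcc

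H2-Aa had a Y box core 48 bases before its start and H2-DMb1 had one 61 bases before. H2-Eb1 had Y box cores 59 and 35 bases before its start and the X box letters 92 bases before it, so that both motifs were present. In the Ctsl window neither run of letters occurred, nor in those of Ctss, Ifi30 and the first start of H2-DMa. A second listed start of H2-DMa had a Y box core 198 bases before it. The end of that second window, unlike the ends of the other windows, did not match a transcript. Short motifs are common: of 32851 promoters of the same length, 37.4% held CCAAT, 14.8% held AGCAAC and 5.84% held both. A match of letters describes the sequence and is no evidence of a bound factor.

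In the mm10 annotation, H2-Aa (34282744 to 34287823, minus strand), H2-Ab1 (34257689 to 34269419), H2-Eb1 (34305867 to 34316674), H2-DMa (34119541 to 34139101) and H2-DMb1 (34153072 to 34160230) lie together on chromosome 17. Cd74 lies on chromosome 18 (60803848 to 60812652), Ciita on chromosome 16 (10480059 to 10528418), Ctsl on chromosome 13 (64359337 to 64370890, minus strand), Ctss on chromosome 3 (95526786 to 95556403) and Ifi30 on chromosome 8 (70762774 to 70766663, minus strand). The antisense gene Gm20513 overlaps H2-Eb1, Brd2 and a pseudogene overlap H2-DMa, Dexi overlaps Ciita and a pseudogene overlaps Ctss. Whether counting used the strand is not given in the sources used here, so reads of such partners could not be told apart. H2-DMb1 and H2-Eb1 also have close copies, H2-DMb2 and H2-Eb2, and the split of reads between copies is uncertain.

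The cells held between 2429 and 370365 counts each (median 29106.5) and came in 12 library pools, 6 on each of 2 sort dates (72 and 128 cells). Each of the 200 cells had its own pair of pool and primer. In 45 wells the summed counts of a leukocyte marker list exceeded those of an epithelial list, although the sort was CD45-. Below, values given for the 4 groups without naming each stand in the order WT GFPhi, then WT GFPlo, then KO GFPhi, then KO GFPlo. These leukocyte-marked wells numbered 12, 11, 2 and 20, of which 9, 9, 2 and 15 were of the second sort date. Leukocytes of several kinds carry class II themselves, so the members' ratios and their correlations with surface protein are also given without these wells. Over all cells of a group the leukocyte list (31 of its 32 genes in the table) stood at 8002, 7046, 2163 and 5356 counts per 1000000 counts (CPM), with Flt3, Cd3e and Cd8a at 0 in WT GFPlo. B cell markers stood at 5983, 5073, 445 and 1775 CPM and a list of dendritic cell and macrophage markers, of which Irf8 was at 0, at 441, 389, 318 and 1156. The epithelial list (15 genes) stood at 4361, 5293, 5610 and 4359 CPM, with Krt19 at 0 in KO GFPhi. The part of other cells in the levels below was not tested beyond leaving these wells out. Aire, the targeted gene, was at 537, 244, 815 and 316 CPM, so its transcript was present in the KO cells, and which exons the knockout removes is not given in the sources used here.

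Class II message was found in essentially every sorted cell. H2-Aa, H2-Eb1 and Cd74 each had counts in 200 of 200 cells and H2-Ab1 in 199. The 1 cell without H2-Ab1 was a WT GFPlo cell of 7997 counts that held 3 counts of H2-Aa, 4 of H2-Eb1 and 7 of Cd74, and its surface intensity was 45006. The other members were found in fewer cells: H2-DMb1 in 166, H2-DMa in 147, Ctss and Ifi30 in 185 each, Ciita in 111 and Ctsl in 99. These shares depend on depth, and a cell without a count may still hold the transcript.

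The 6 genes of class II chains and chaperones (H2-Aa, H2-Ab1, H2-Eb1, H2-DMa, H2-DMb1 and Cd74) together held 2.26% of all counts. Single cells ranged from 0.188% to 8.24%. The lowest was the WT GFPlo cell without H2-Ab1. The highest was a leukocyte-marked KO GFPlo well of the second date, with 82373 class II CPM at a surface intensity of 37619, which is below the median of its group.

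**Figure D1:**
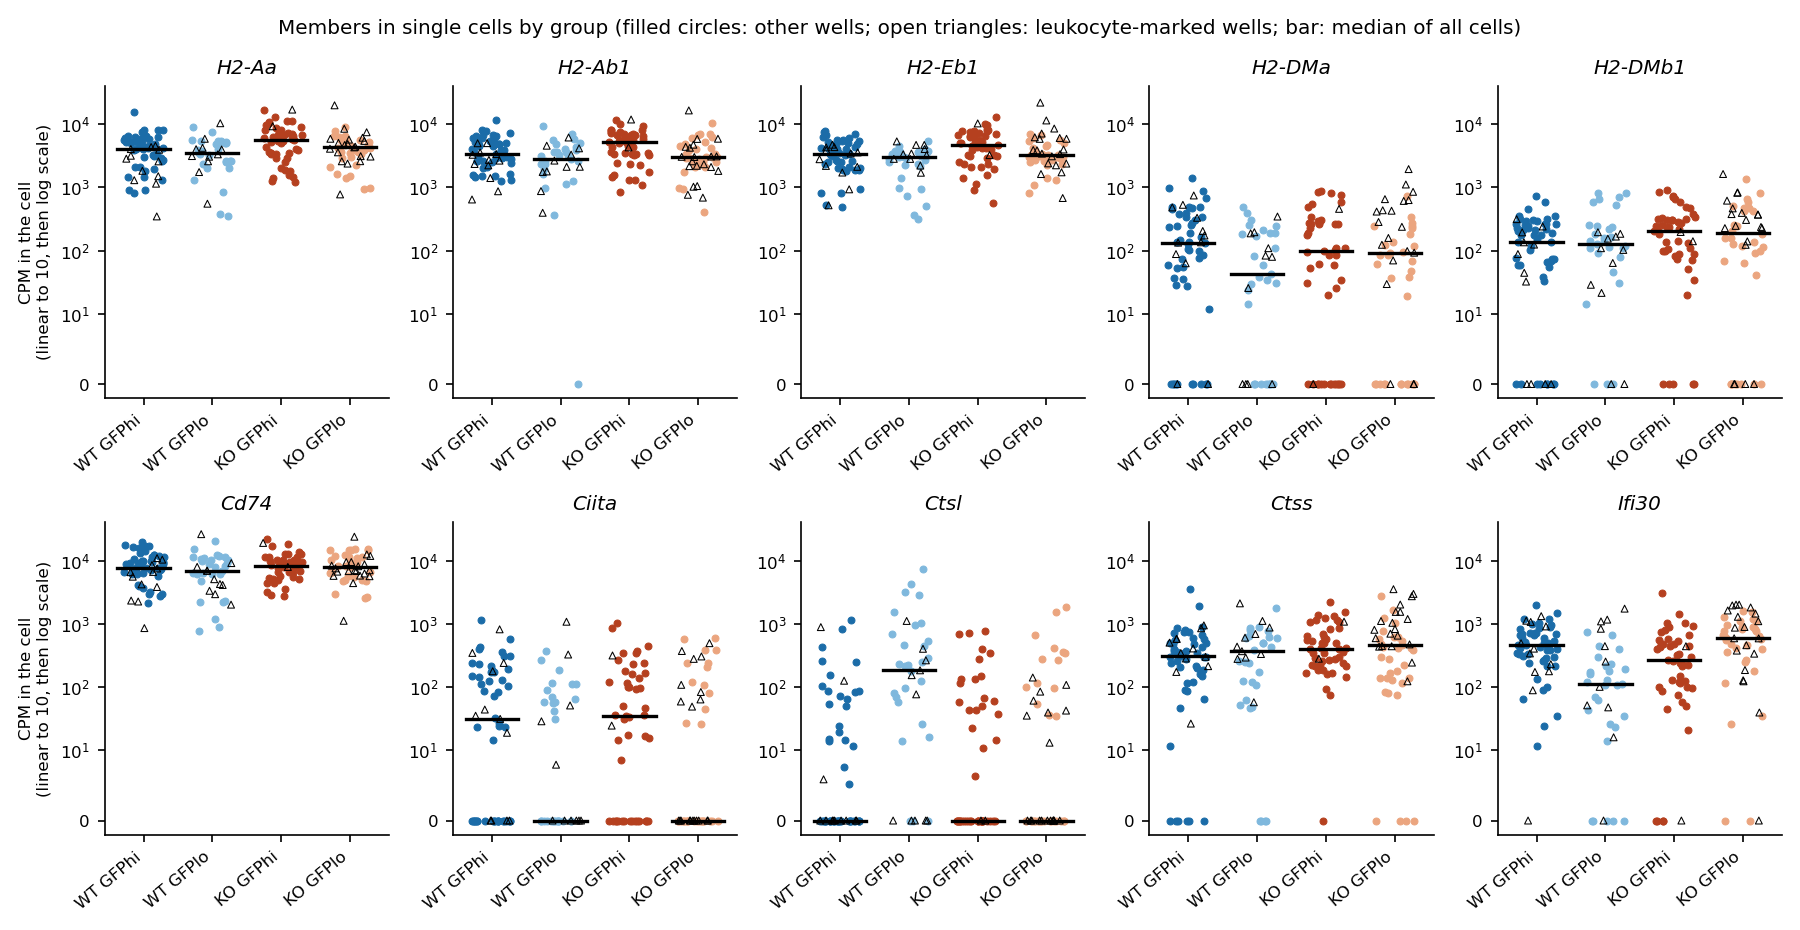
CPM of each of the 10 genes in each of the 200 cells, by group (vertical axis linear up to 10 and logarithmic above; the bar is the median of all cells of the group). The 3 chains and Cd74 lie within a band above 300 CPM in every cell but 1, while Ciita and Ctsl are at 0 in many cells, and Ctsl has a median above 0 only in WT GFPlo.

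Summed over the cells of a group, the 6 genes stood at 21273 CPM in WT GFPhi (95% interval 21120–21427), 17576 in WT GFPlo (17404–17750), 27383 in KO GFPhi (27197–27571) and 23389.5 in KO GFPlo (23169.5–23611). Over single cells the lowest, median and highest values were 4156, 20034 and 51016 in WT GFPhi, 1876, 17405 and 44351 in WT GFPlo, 6361, 25230.5 and 60470 in KO GFPhi, and 5084, 20665 and 82373 in KO GFPlo. Single cells of the 4 groups therefore overlapped over most of their range, although the group sums were ordered. Intervals here and below are exact and cover the counting of tags only. On the first and second sort dates the sums were 25093 and 19337 CPM for WT GFPhi, 22995 and 12547 for WT GFPlo, 28998 and 26746 in KO GFPhi, and 23244 and 23474 in KO GFPlo. In WT GFPlo the 2 dates thus lay further apart than any pair of groups summed over both dates. On the second date alone, KO GFPhi and KO GFPlo lay further from WT GFPlo than that.

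The first question was whether loss of Aire went with another level of class II genes in cells of the same GFP gate. In GFPhi cells the summed level in KO was 1.29 times that in WT (1.27–1.30), with 1.16 and 1.38 on the 2 dates and 1.11 without leukocyte-marked wells. In GFPlo cells the ratio was 1.33 (1.31–1.35), with 1.01 and 1.87 by date and 1.10 without leukocyte-marked wells. In both gates the ratio was above 1 in each of these settings, from 1.01 to 1.87, and it moved with the date and with the wells kept. Without leukocyte-marked wells the summed WT level rose from 21273 to 24225 CPM in GFPhi and from 17576 to 19365.5 in GFPlo. The summed KO level fell in both gates. In GFPlo on the first date the 2 levels were nearly equal, at 23244 CPM in KO and 22995 in WT.

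The second question was how the gates differ within a genotype. WT GFPhi cells had 1.21 times (1.20–1.23) the summed level of WT GFPlo cells, with 1.09 and 1.54 by date and 1.25 without leukocyte-marked wells. In KO cells the ratio of GFPhi to GFPlo was 1.17 (1.16–1.18), with 1.25 and 1.14 by date and 1.26 without those wells. As a group sum, in which deep cells weigh more, the class II level was therefore higher in the GFPhi gate in both genotypes on both dates. Over single WT cells of the first date the order was reversed. There the mean was 21210 CPM in GFPhi and 22548 in GFPlo, and the median 21677 and 23263.

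Single genes were called when they differed at least 1.5-fold with the interval on that side of 1, and only genes holding 10 or more counts over both groups were considered. Calls of this kind are frequent between sums of single cells. In KO against WT GFPhi, 25.9% of 15033 genes were called higher and 33.9% lower, and of the 10 members 2 were higher and 1 lower. In KO against WT GFPlo the shares were 28.6% and 32.7% of 13882 genes, and 4 members were higher and 1 lower. In WT GFPhi against GFPlo they were 32% and 30.1% of 15064 genes, with 2 members higher and 1 lower. In KO GFPhi against GFPlo they were 29.5% and 31% of 13898 genes, with 0 members higher and 2 lower. The members' calls were thus no more frequent than those of genes in general, except for the 4 of 10 that were higher in KO GFPlo, and that count was 1 without leukocyte-marked wells. The members' median log2 ratio was 0.46, 0.52, 0.27 and −0.02 in these 4 comparisons, beside −0.13, −0.05, 0.05 and −0.03 over all genes tested. Without leukocyte-marked wells it was 0.19, 0.13, 0.33 and 0.27, beside −0.11, −0.04, 0.12 and 0.00 over all genes.

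**Figure D2:**
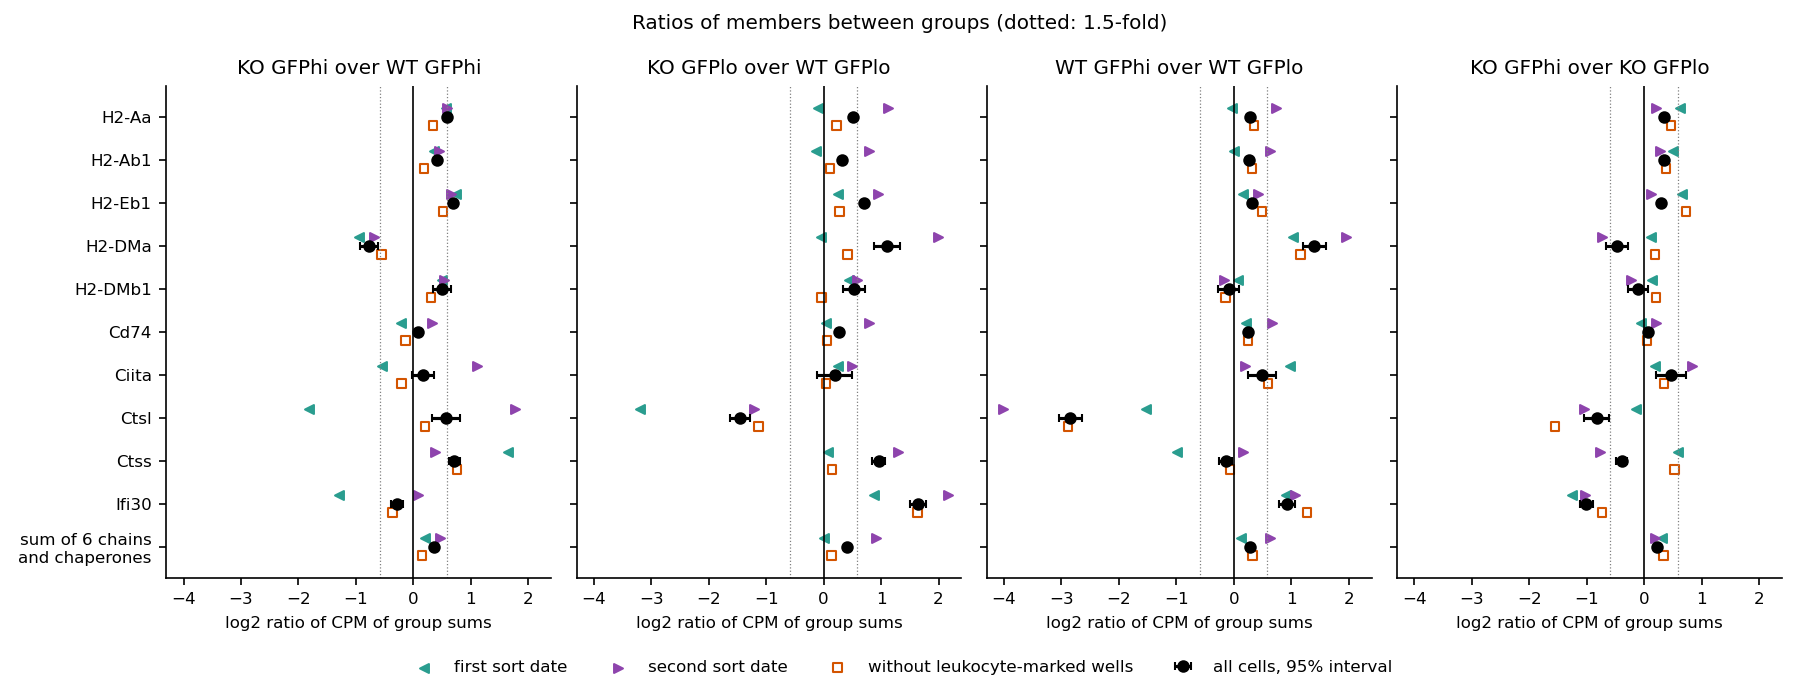
Log2 ratio of the CPM of group sums for each of the 10 genes and the sum of the 6 chains and chaperones, in 4 comparisons (black points with 95% counting intervals, triangles for each sort date, open squares without leukocyte-marked wells, dotted lines at 1.5-fold). Between dates and comparisons, H2-Aa, H2-Ab1 and H2-Eb1 span ratios from 0.911 to 2.17. H2-DMa spans 0.519 to 3.98 and Ctsl 0.0619 to 3.41.

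Among the chains, H2-Eb1, which encodes the beta chain of the I-E molecule, passed 1.5-fold in both KO comparisons. Its level was 3550 CPM in WT GFPhi, 2862 in WT GFPlo, 5716 in KO GFPhi and 4668 in KO GFPlo, and their intervals did not overlap. The KO to WT ratio was 1.61 in GFPhi (1.57–1.65), with 1.68 and 1.57 by date, but 1.43 without leukocyte-marked wells and 1.45 without pool 12. In GFPlo the ratio was 1.63 (1.58–1.69), with 1.18 and 1.94 by date, 1.21 without leukocyte-marked wells and 1.33 without pool 12. H2-Eb1 was thus above the WT level in every one of these settings and below 1.5-fold in several of them. Between the KO gates its GFPhi to GFPlo ratio was 1.22, but 1.66 without leukocyte-marked wells, and 1.58 and 1.08 by date. In the B6 strain the partner alpha chain gene of I-E is a pseudogene, H2-Ea-ps, which had 62 counts in 8 of the 200 cells.

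H2-Aa and H2-Ab1, the alpha and beta chain of the I-A molecule, followed the same order of groups. H2-Aa stood at 4316 CPM in WT GFPhi, 3565 in WT GFPlo, 6441 in KO GFPhi and 5068 in KO GFPlo. In KO against WT its ratio was 1.49 in GFPhi (1.46–1.52), with 1.48 and 1.51 by date, and 1.42 in GFPlo (1.38–1.46), with 0.934 and 2.17 by date. H2-Ab1 stood at 4114, 3442, 5465 and 4274 CPM in the same order of groups, with KO to WT ratios of 1.33 in GFPhi and 1.24 in GFPlo. The KO to WT ratio of both I-A genes was thus below 1 in GFPlo on the first date (0.911 for H2-Ab1) and above 1 on the second. Without leukocyte-marked wells it was 1.27 and 1.17 for H2-Aa and 1.14 and 1.08 for H2-Ab1. H2-Aa lay close to the threshold, and in GFPhi it passed it without pool 5 (1.53), pool 6 (1.51), pool 9 (1.53) or pool 11 (1.595), and in GFPlo without pool 4 (1.57) or pool 6 (1.52).

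Cd74, the invariant chain, differed least between groups of the abundant members. It stood at 8831 CPM in WT GFPhi (8732–8931), 7416 in WT GFPlo (7305–7530), 9348 in KO GFPhi (9239–9457) and 8881 in KO GFPlo (8746–9018), and the intervals of WT GFPhi and KO GFPlo overlapped. The KO to WT ratio in GFPhi was 1.06 and turned to 0.858 on the first date, to 0.912 without leukocyte-marked wells and to 0.982 and 0.977 without pool 4 and pool 12. In GFPlo the KO to WT ratio was 1.20, with 1.03 and 1.72 by date and 1.04 without leukocyte-marked wells. Between the KO gates the ratio of 1.05 turned to 0.988 without pool 11.

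The 2 chains of H2-DM did not move alike. H2-DMa stood at 292 CPM in WT GFPhi (274–310), 111 in WT GFPlo (97.3–125), 171 in KO GFPhi (157–187) and 238 in KO GFPlo (216–261.5). It was 2.64-fold higher in WT GFPhi than in WT GFPlo (2.30–3.04), with 2.04 and 3.87 by date and 2.23 without leukocyte-marked wells. KO GFPhi had 0.587 times the WT level (0.527–0.653), with 0.519 and 0.620 by date, but 0.682 without leukocyte-marked wells and 0.872 as a mean over cells. In GFPlo the ratio was 2.15 (1.84–2.53), made of 0.969 on the first date and 3.98 on the second, and it was 1.33 without leukocyte-marked wells. In those 20 wells of KO GFPlo the H2-DMa level was 352 CPM, against 150 in the other 32 cells. Between the KO gates H2-DMa had a GFPhi to GFPlo ratio of 0.719, with 1.09 and 0.603 by date and 1.14 without leukocyte-marked wells, and of the pools left out in turn only the omission of pool 8 (0.661) made it a call.

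H2-DMb1, the beta chain of H2-DM, stood at 170 CPM in WT GFPhi (157–184), 181 in WT GFPlo (164–199), 241 in KO GFPhi (224–260) and 260 in KO GFPlo (238–285). The intervals of both WT groups overlapped, as did those of both KO groups. KO to WT ratios were 1.42 in GFPhi and 1.44 in GFPlo, with 1.42 and 1.44 by date in GFPhi and 1.36 and 1.499 in GFPlo. Without leukocyte-marked wells they were 1.24 and 0.974. They passed 1.5-fold without pool 6 (1.57 and 1.595) or pool 11 (1.52 and 1.61), while the WT GFPhi to GFPlo ratio of 0.940 turned to 1.01 without pool 6 or pool 12. After thinning to 10000 counts, H2-DMb1 was found in 50.9% of 55 and 59.4% of 32 cells of the WT gates and in 77.3% of 44 and 75% of 48 cells of the KO gates, against 80.3%, 87.2%, 89.6% and 76.9% before thinning.

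Ciita, the transactivator on which class II transcription depends, was not called in any comparison over all cells, but was in some settings. Its level was 122 CPM in WT GFPhi (110–134), 86.7 in WT GFPlo (75–99.7), 137 in KO GFPhi (124–151) and 99.1 in KO GFPlo (85.2–115). The KO to WT ratio had an interval that included 1 in both gates, 1.12 (0.979–1.29) in GFPhi and 1.14 (0.929–1.40) in GFPlo. By date the GFPhi ratio was 0.687 and 2.16, and without leukocyte-marked wells it was 0.868. The GFPlo ratio was 1.19 and 1.40 by date and 1.03 without those wells. The GFPhi ratio turned to 0.984 without pool 11 and 0.888 without pool 12, and the GFPlo ratio to 0.992 without pool 4 and 0.991 without pool 5, and to 1.595 without pool 6. GFPhi cells had 1.40 times the GFPlo level in WT, and 1.80, 1.58 and 1.504 times without pools 6, 10 and 11. That WT ratio was 1.97 and 1.15 by date and passed the threshold, at 1.504, without leukocyte-marked wells. In KO the figure was 1.38, with 1.14 and 1.78 by date, 1.27 without leukocyte-marked wells and 1.63 without pool 5. Few cells carried these counts: 4, 2, 3 and 5 cells of the 4 groups held at least 50% of them.

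Ctsl, cathepsin L, had the widest differences among the members. Its level was 529 CPM in WT GFPlo (499–560), against 73.5 in WT GFPhi (64.8–83.1), 109 in KO GFPhi (97.4–121) and 193 in KO GFPlo (174–214). Counts were found in 31 of 39 WT GFPlo cells, 25 of 61 WT GFPhi, 21 of 48 KO GFPhi, and 22 of 52 cells from the KO GFPlo gate. After thinning to 10000 counts the shares were 62.5% in WT GFPlo (43.7–78.9%), 20% in WT GFPhi (10.4–33%), 27.3% in KO GFPhi (15–42.8%) and 29.2% in KO GFPlo (17–44.1%). WT GFPlo was thus the group with most Ctsl by level and by share of cells, and its cells still ran from 0 to 7328 CPM with a median of 184, while the median was 0 in the other 3 groups.

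WT GFPhi had 0.139 times the Ctsl level of WT GFPlo (0.121–0.159), a 7.20-fold lower level, with 0.346 and 0.0619 by date, 0.135 without leukocyte-marked wells and 0.0822 without pool 5. KO GFPlo had 0.365 times the WT GFPlo level (0.324–0.411), with 0.110 and 0.433 by date, 0.455 without leukocyte-marked wells and 0.0778 without pool 11. Both differences kept their direction in each of these settings. The other comparisons did not: KO to WT in GFPhi was 1.48, with 0.286 and 3.41 by date, 2.33 without pool 5 and 0.886 without pool 11. It was also called higher without pool 3 (1.54), pool 4 (1.66), pool 8 (1.51) or pool 10 (1.57). In KO cells the ratio of GFPhi to GFPlo was 0.563, but 0.917 when the cell with the most counts was left out of each group, and 1.54 without pool 11. Single cells weigh heavily here, since 1 cell held 48.2% of the Ctsl counts of KO GFPlo and 42.4% of those of WT GFPhi. In WT GFPlo 3 of 39 cells held at least 50% of them. In leukocyte-marked wells Ctsl stood at 19.8, 103, 0 and 21.1 CPM in the 4 groups, each below the level over all cells of the same group. A list of 7 cortical epithelial markers stood at 1415, 2170, 1818 and 1032 CPM in these groups, with Cxcl12 at 0 in KO GFPhi. The median cell held 971, 523, 1013 and 721 CPM of that list. On the first and second dates the list stood at 4019 and 455 CPM in WT GFPlo, and Ctsl at 403 and 646. The part of these markers in the Ctsl levels was not tested.

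Ctss, cathepsin S, was found in most cells of every group, with 55 of 61 and 35 of 39 cells in the WT gates and 47 of 48 and 48 of 52 in the KO gates. Its level was 440 CPM in WT GFPhi (418–463), 487 in WT GFPlo (458–516), 720 in KO GFPhi (690–751) and 945 in KO GFPlo (901–991). The KO to WT ratio was 1.64 in GFPhi (1.53–1.75), with 3.12 and 1.30 by date, 1.69 without leukocyte-marked wells and 1.44 without pool 4. In GFPlo the ratio was 1.94 (1.80–2.10), with 1.05 and 2.47 by date, and 1.11 without leukocyte-marked wells. The 20 leukocyte-marked KO GFPlo wells held 1524 CPM of Ctss and the other 32 cells 497. WT GFPlo without its leukocyte-marked wells held 448. Summed over all cells, the dendritic cell and macrophage list was also at its highest in KO GFPlo, at 1156 CPM, with a highest well of 14202. Without leukocyte-marked wells it was 319 CPM there, below WT GFPhi (445) and WT GFPlo (373). On the first date it was 546 CPM, also below WT GFPhi (573) and WT GFPlo (559). Its part in the Ctss level was not tested. Between the KO gates the ratio of GFPhi to GFPlo was 0.762, with 1.4997 and 0.586 by date and 1.45 without those wells.

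Of the counts of both cathepsin genes together, Ctsl made up 52.1% in WT GFPlo (50–54.2%), 14.3% in WT GFPhi (12.7–16%), 13.1% in KO GFPhi (11.8–14.5%) and 17% in KO GFPlo (15.4–18.6%). These shares are of counts, not corrected for transcript length, and are read only between groups. Without leukocyte-marked wells they were 61.5%, 18.6%, 13.4% and 39.6% in the same order. The share in WT GFPlo was 45.2% and 57.1% on the 2 dates, above that of each other group on the same date, which was at most 36.1%. In KO GFPlo it was 7.94% and 19%. The pooled share does not describe the single WT GFPlo cell. There 24 of 39 cells held more Ctss counts than Ctsl counts and 11 held more Ctsl. Without leukocyte-marked wells these numbers were 13 and 11 of 28. As few as 3 of the 39 cells held at least 50% of the Ctsl counts, a spread that the counting interval does not cover. Elsewhere, more Ctsl than Ctss was found in 6 of 61 (WT GFPhi), 5 of 48 (KO GFPhi) and 8 of 52 cells (KO GFPlo).

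**Figure D3:**
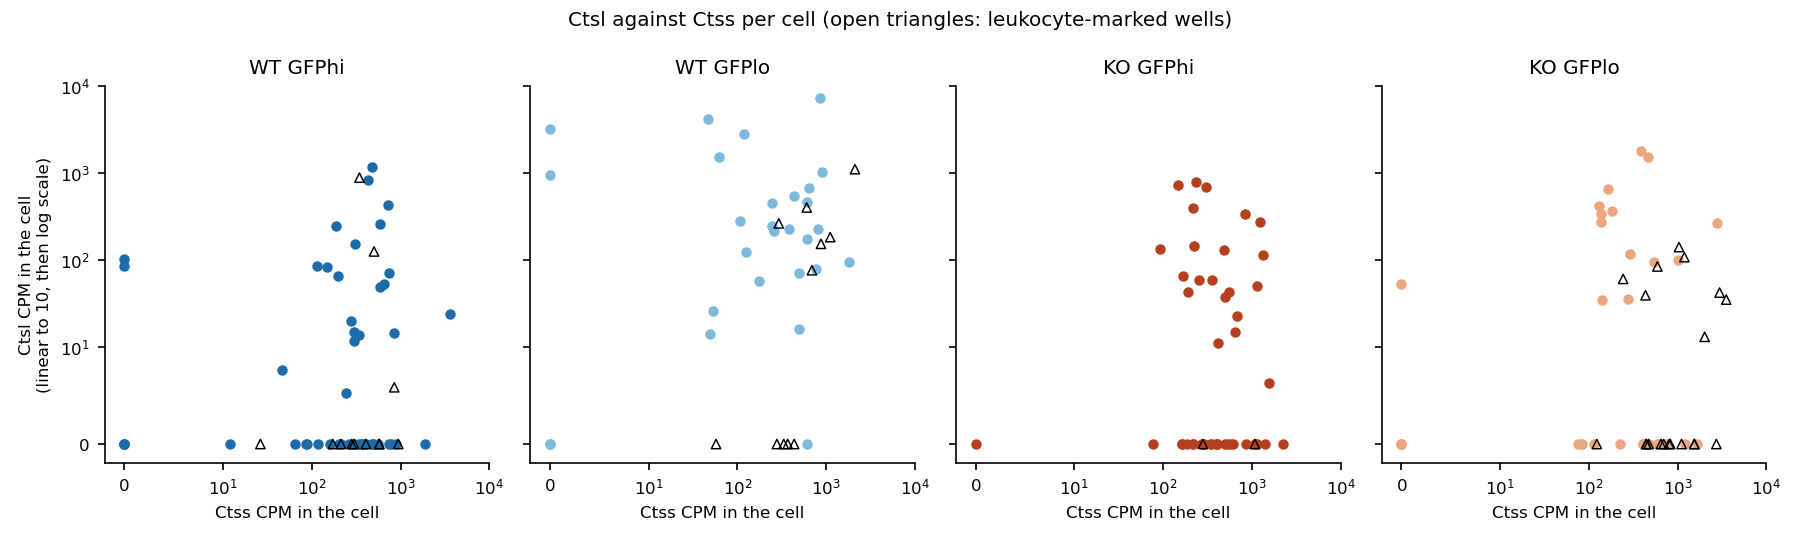
Ctsl against Ctss, as CPM in each cell, for the 4 groups (both axes linear up to 10 and logarithmic above; open triangles are leukocyte-marked wells). In WT GFPlo 31 of 39 cells lie above 0 for Ctsl, while in the other 3 groups most cells lie at 0 for Ctsl over a wide range of Ctss.

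Ifi30, which encodes GILT, was lowest in WT GFPlo over both dates together. Its level was 252 CPM there (232–274), against 477 in WT GFPhi (454–500), 392 in KO GFPhi (370–415) and 788 in KO GFPlo (748–830), so that no intervals overlapped. On the first date KO GFPhi was lower still, at 231 CPM against 301 in WT GFPlo. Over both dates the median cell held 113 CPM in WT GFPlo, 466 in WT GFPhi, 264 in KO GFPhi and 605 in KO GFPlo. KO GFPlo had 3.13 times the WT GFPlo level (2.84–3.45), with 1.84 and 4.47 by date and 3.10 without leukocyte-marked wells. WT GFPhi had 1.89 times the WT GFPlo level (1.72–2.08), with 1.89 and 2.08 by date and 2.41 without leukocyte-marked wells. In KO the order was the other way round, GFPhi having 0.498 times the GFPlo level (0.461–0.538), with 0.419 and 0.493 by date and 0.604 without those wells. The KO to WT ratio in GFPhi was 0.823, with 0.408 and 1.06 by date and 0.624 without pool 11. Thinned to 10000 counts, the share of cells with Ifi30 was 94.5%, 65.6%, 77.3% and 91.7% in the 4 groups, against 98.4%, 84.6%, 89.6% and 94.2% unthinned.

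The third question was how class II message relates to class II protein on the same cell. Surface intensity had medians of 62459 in WT GFPhi (lowest 21894, highest 157580), 58032 in WT GFPlo (35599, 143374), 78673 in KO GFPhi (29999, 214633) and 56769 in KO GFPlo (13718, 138240). The group with the highest surface median, KO GFPhi, was also the one with the highest summed message, whereas over all cells KO GFPlo had the second highest message and the lowest surface median. The order below KO GFPhi depended on the cells kept. Without leukocyte-marked wells the message of KO GFPlo (21336 CPM) was below that of WT GFPhi (24225). On the first date it was also below WT GFPhi, and its surface median of 62546 was above those of WT GFPhi (53721) and WT GFPlo (57983.5). Correlations were taken over cells within each of the 8 sets of 1 group and 1 date. They are descriptions over cells and carry no p.

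Cells with more surface protein tended to hold more class II message, weakly. Spearman's rho between the summed CPM of the 6 chains and chaperones and surface intensity had a median of 0.32 over the 8 sets. It was −0.06 among 23 WT GFPhi cells of the first date and 0.21 in 38 of the second, 0.48 and 0.37 in 18 and 21 WT GFPlo cells, 0.30 and 0.34 in 9 and 39 KO GFPhi cells, and 0.40 and −0.07 in 22 and 30 KO GFPlo cells. It was above 0 in 6 of 8 sets, and in 7 of 8 without leukocyte-marked wells, when the second KO GFPlo value was 0.30 over 15 cells. Each set of 1 group and 1 date was also split at its own median intensity, and the parts were pooled by group. The cells above the split had 1.26 times the summed message of those below it in WT GFPhi, 1.11 in WT GFPlo, 1.13 in KO GFPhi and 0.866 in KO GFPlo. Without leukocyte-marked wells these ratios were 1.16, 1.09, 1.18 and 1.09. In WT GFPhi the median intensities of these cells were 95689 above and 46292.5 below the split, a gap that the split itself sets.

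**Figure D4:**
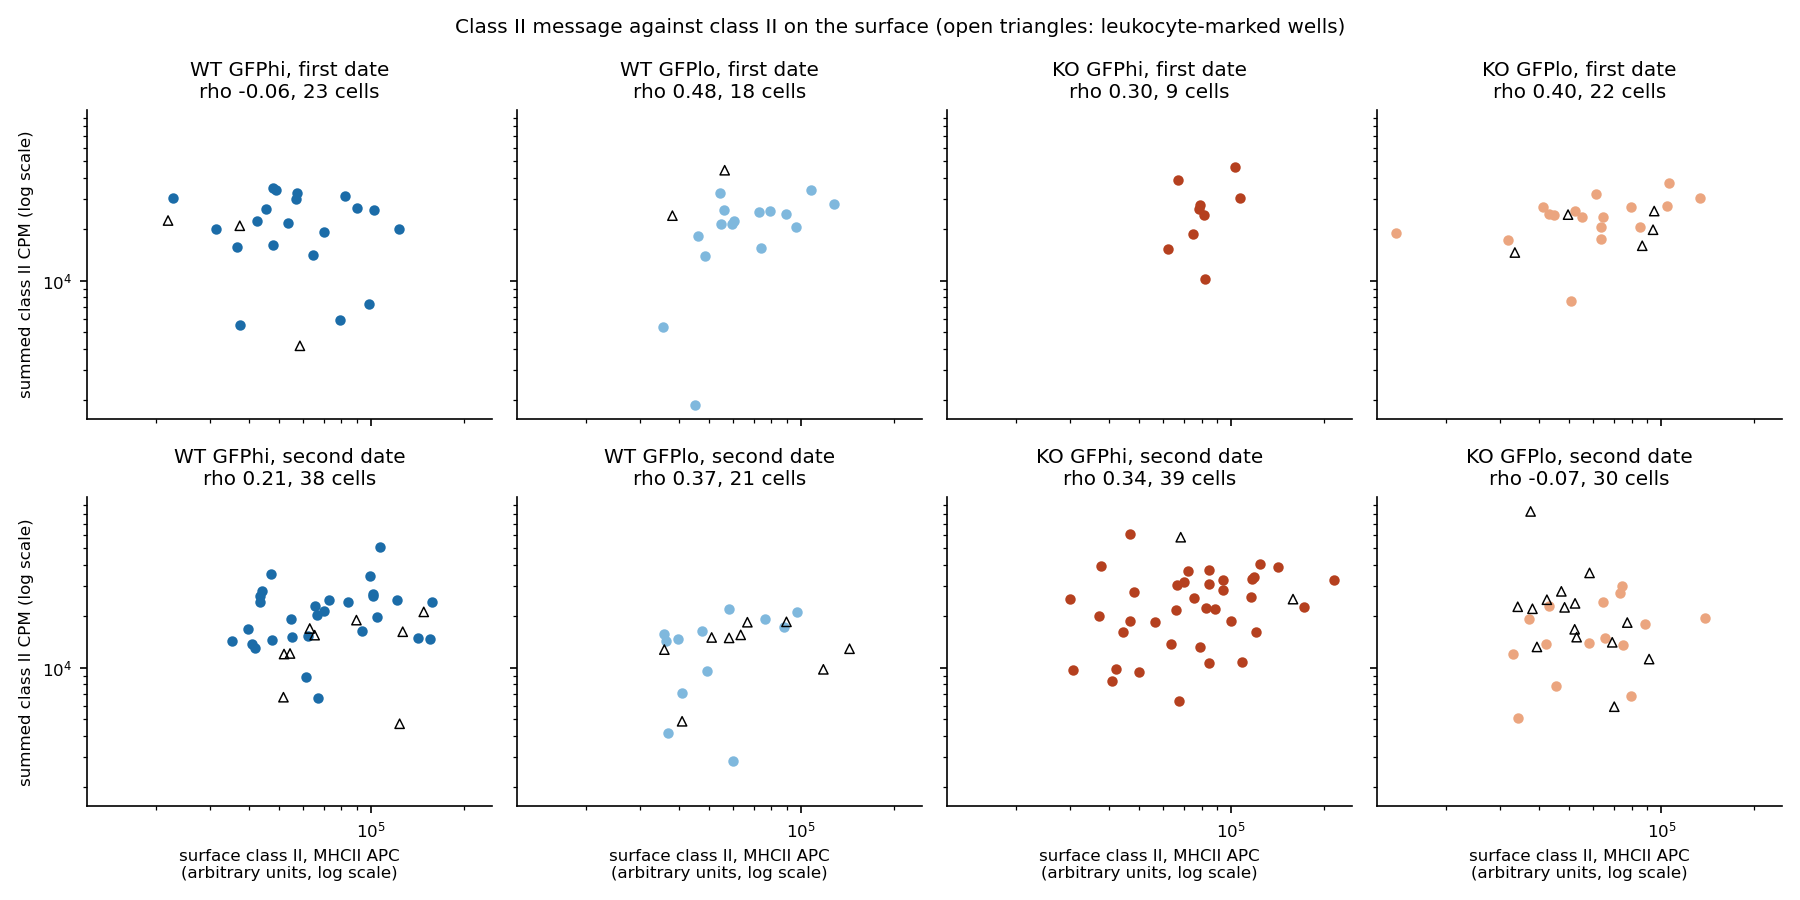
Summed CPM of the 6 chains and chaperones against surface class II intensity, 1 point per cell, in 8 panels of 1 group and 1 sort date (both axes logarithmic; open triangles are leukocyte-marked wells). Spearman's rho, printed in each panel, lies between −0.07 and 0.48, and cells of like intensity differ widely in message.

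By member, the median rho with surface protein was higher for the chains and Cd74 than for the other members. The median rho was 0.26 for H2-Aa, 0.23 for H2-Eb1, 0.22 for H2-Ab1 and 0.18 for Cd74. It was 0.11 for H2-DMb1, which turned to −0.08 after thinning to 10000 counts, and 0.12 for Ctss. It was 0.09 for Ciita, −0.04 for Ifi30, −0.07 for H2-DMa and −0.08 for Ctsl. Over the 6515 genes with counts in at least 25% of cells the median was 0.01, and 95% of them lay at or below 0.17. A rho above 0 in at least 6 of the 8 sets was found for 5 of the 10 members (H2-Aa, H2-Ab1, H2-Eb1, H2-DMb1 and Cd74), against 16% of the 6515 genes. Without leukocyte-marked wells the medians were 0.40 for H2-Aa, 0.29 for H2-Ab1, 0.24 for H2-Eb1, 0.22 for Cd74, 0.09 for H2-DMb1, 0.10 for Ctss, 0.11 for Ciita, 0.02 for H2-DMa and Ifi30, and −0.21 for Ctsl. The differences in rho between members were not tested. Sparse members can show lower correlations than abundant ones, and Ciita and Ctsl had counts in only 111 and 99 cells.

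**Figure D5:**
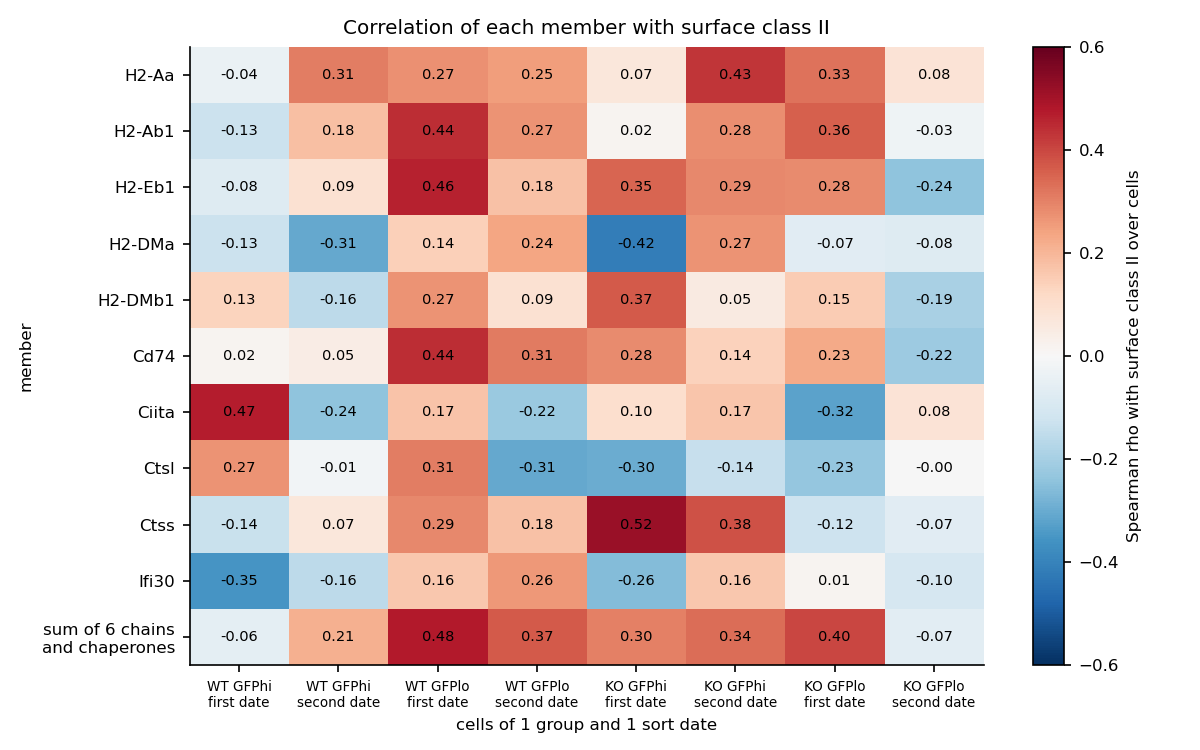
Spearman's rho between each member and surface class II intensity (colour and number) in each of the 8 sets of cells of 1 group and 1 sort date. Rows of H2-Aa and Cd74 are above 0 in 7 of 8 sets, and those of Ciita, Ctsl, H2-DMa and Ifi30 are of mixed sign.

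Among themselves, the 3 chains and the invariant chain varied together. Over the 8 sets the median rho of their 6 pairs lay between 0.54 (H2-Eb1 with Cd74) and 0.68 (H2-Aa with H2-Ab1), and each of the 6 was above 0 in all 8 sets. After thinning to 10000 counts these medians ran from 0.42 to 0.60, and without leukocyte-marked wells from 0.56 to 0.70. Members with more than a few counts in every cell can show higher correlations than sparse ones, and all share the total of the cell as denominator. The other 39 pairs of members had medians from −0.14 to 0.44, and 8 of them were above 0 in all 8 sets, among them H2-Eb1 with H2-DMb1 (0.44) and Cd74 with Ctss (0.37). Against the summed level of the 6 genes, median rho was 0.38 for Ctss, 0.33 for Ifi30, −0.04 for Ciita and −0.06 for Ctsl. H2-DMa and H2-DMb1, whose products form 1 molecule, had a median rho of 0.27 with each other, above 0 in 5 of 8 sets.

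The 8 genes outside the 10 whose CPM per cell was most like the summed class II level, by median rho over the 8 sets among 6001 eligible genes, were B2m (0.56), Ubd (0.53), Reg3g (0.51), Hdc (0.51), Csn2 (0.50), H2-Eb2 (0.49), H2-K1 (0.47) and Srgn (0.47). B2m encodes the light chain of MHC class I and H2-K1 one of its heavy chains. H2-Eb2 encodes a class II beta chain, Ubd a ubiquitin-like modifier, Reg3g an antimicrobial lectin of the gut, Hdc histidine decarboxylase, Csn2 the milk protein beta casein, and Srgn a proteoglycan of granules. After thinning, the medians were 0.43 for B2m, 0.44 for Ubd, 0.53 for Hdc and 0.22 for H2-K1. H2-K1, unlike the class II chains, had a median rho of −0.13 with surface class II.

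Of 36 other genes of the class II pathway, 35 were measured, and H2-Ea was not in the table under that name. Called higher and lower were 8 and 10 of the 35 in KO against WT GFPhi, 10 and 6 in KO against WT GFPlo, 7 and 12 in WT GFPhi against GFPlo, and 7 and 14 in KO GFPhi against GFPlo. The list's median log2 ratios were −0.04, 0.11, −0.23 and −0.44, and its shares of calls stand beside the percentages given above for all genes.

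In KO against WT GFPhi the leading pathway genes above 1.5-fold were March8, a ubiquitin ligase, at 141 against 27.4 CPM (5.15-fold, 4.12–6.5, with 7.94 and 4.69 by date and 4.34 without leukocyte-marked wells), Cd82, a tetraspanin, at 161 against 73.0 (2.21-fold, 1.89–2.58, and 1.55-fold without those wells), and Irf1, an interferon-responsive transcription factor, at 210 against 116 (1.80-fold, 1.58–2.04, and 1.51-fold without them). Called lower with the interval bound furthest from 1 were Rfxank, a subunit of the X box factor RFX, with 1 count in KO against 54 in WT (ratio 0.0213, 0.000530–0.124), Ctsd, the aspartic protease cathepsin D, with 5 against 110, and Nfyc, a subunit of the Y box factor NF-Y, with 30 against 235. Of the 54 Rfxank counts 74.1% were in 1 cell. Ctsd was also low in KO GFPlo, with 5 counts in 2 of 52 cells against 167 in 13 of 39 WT GFPlo cells, and 5 against 90 without leukocyte-marked wells. By date these were 5 against 16 counts and 0 against 151. Nfyc was at 29.2 CPM in KO against 97.3 in WT GFPlo, but at a ratio of 0.835 without leukocyte-marked wells.

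Prss16, the thymus-specific serine protease, was at 61.1 CPM in WT GFPhi against 7.96 in WT GFPlo (7.68-fold, 4.74–13.2, with 6.63 and 8.38 by date), and at 31.9 in KO GFPlo, where 1 cell held 72.9% of the counts and the ratio to WT GFPlo was 1.07 and 5.91 by date. Ctsc, cathepsin C, was 2.13-fold higher in WT GFPhi than in WT GFPlo (1.82–2.50, with 2.16 and 2.13 by date) and 2.19-fold higher in KO GFPlo than in WT GFPlo, but 1.52-fold without leukocyte-marked wells. H2-Ea-ps had 0 counts in WT GFPlo, 36 in WT GFPhi and 24 in KO GFPlo. All of these counts were of the first date, and 1 cell held 75% and 83.3% of them. Lower in WT GFPhi than in WT GFPlo were Nfya, a subunit of NF-Y, at 21.6 against 96.9 CPM, Lgmn, the asparagine endopeptidase legumain, at 9.52 against 42.9, and March8 at 27.4 against 97.3, the last with ratios of 0.0247 and 1.48 by date.

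Between the KO gates, Rfxap, another subunit of RFX, was at 38.5 CPM in GFPhi against 8.66 in GFPlo (4.45-fold, 2.63–8.04, and 3.42-fold without leukocyte-marked wells), and it was at 8.66 CPM in KO against 67.2 in WT GFPlo cells. H2-Eb2 was 1.96-fold higher in KO GFPhi than in KO GFPlo (1.788–2.15) and H2-Oa, the alpha chain of the H2-DM inhibitor H2-O, 1.91-fold (1.73–2.10). By date these were 1.69 and 2.29 for H2-Eb2 and 0.824 and 3.16 for H2-Oa, and 1.30 and 1.70 without leukocyte-marked wells. By the same bound, Tfeb, Ctse and H2-Ea-ps led the genes lower in KO GFPhi than in KO GFPlo, with 2 counts against 28 (ratio 0.0438, 0.00506–0.174), 3 against 22 (0.0836, 0.016–0.278) and 2 against 24 (0.0511, 0.00585–0.206). Without leukocyte-marked wells Tfeb had 2 counts against 1. Each of these last 3 genes was found in at most 5 cells of either group.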

How the data were processed

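The authors deposited raw counts, whole numbers for each gene in each cell. HTSeq, SAMtools 0.1.19, Picard 1.79, TopHat, TopHat2 and the build mm10 are listed per the submitters' processing notes, without role or order. Whether molecular identifiers were collapsed is not given in the sources used here. The summed counts of a cell exceeded the umi number given in its metadata in 40 cells, and the number of unique reads in 0. The counts were therefore treated as sequenced tags. Primers were of kind ls in 153 cells and of kind umi in 47. Per the file headers, the deposited metadata give flow cytometer intensity per cell and a sort date.

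All 200 cells were used, with no doublet step. For each group, counts were added up and divided by the group's total, per 1000000 counts (CPM), so deep cells weigh more. Levels carry exact Poisson, ratios exact conditional binomial (Clopper-Pearson) and shares exact binomial 95% intervals. For log2 ratios 0.5 count was added. Detection was also counted after thinning cells to 10000 counts, leaving out shallower cells (6 and 7 in WT GFPhi and GFPlo, 4 and 4 in KO). Members and lists were chosen with earlier results of these data known. Up to 3 other pathway genes per direction and comparison were named, by the ratio bound nearest to 1. Genes most like the members were the 8 with the highest median rho, ribosomal protein genes, gene models and pseudogenes left out. Alternatives were each sort date, each pool left out, primer kinds, cells of at least 10000 counts, means over cells, TMM factors (edgeR 4.0.16 in R 4.3.3), and omission of leukocyte-marked wells. Counts of called members by date and without those wells, and ratios without the cell with the most counts, were added after seeing the data. Scripts were tested on simulated data. Gene positions came from GENCODE on GRCm38 (mm10). Software was scipy 1.17.1, pandas 2.3.3, matplotlib 3.10.9 and numpy 2.4.6 under Python 3.11.15.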

Additional observations from a re-analysis of the deposited data

Results flagged for a closer look

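For 3 members the KO to WT ratio lay on opposite sides of 1 in the GFPhi and the GFPlo gate, and with 1 sample in each group this difference was not tested. For H2-DMa the log2 ratio of KO to WT in GFPhi minus that in GFPlo was −1.87, from ratios of 0.587 and 2.15. On the first date the GFPlo ratio was 0.969, so that both gates lay below 1 there. For Ifi30 the difference was −1.92, from ratios of 0.823 and 3.13, and on the second date the GFPhi ratio was 1.06. For Ctsl the difference was 2.02, from ratios of 1.48 and 0.365, and on the first date both gates lay below 1, at 0.286 and 0.110. The opposite directions of these 3 genes were therefore not present on both sort dates for any of them.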

How the results depend on the processing

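The depth behind these values is low, single cells carry many of the counts of Ctsl, Ciita and H2-DMa, and no animal is named, so the intervals describe the counting of tags alone. The 4 log2 ratios of the summed class II chains and chaperones (0.36 for KO over WT GFPhi, 0.41 for KO over WT GFPlo, 0.28 for WT GFPhi over GFPlo and 0.23 for KO GFPhi over GFPlo) stayed above 0 in every alternative run, and the causes of their moves were not tested. In that order they were 0.16, 0.14, 0.32 and 0.34 without leukocyte-marked wells, 0.21, 0.016, 0.13 and 0.32 on the first date, and 0.47, 0.90, 0.62 and 0.19 on the second. They were 0.32, 0.94, 0.77 and 0.14 with umi primers, 0.34, 0.27, 0.18 and 0.25 as means over cells, and 0.42, 0.37, 0.30 and 0.35 with TMM factors. With ls primers the last 3 were 0.31, 0.18 and 0.25. Leaving out each pool gave 0.25 to 0.44, 0.16 to 0.53, 0.19 to 0.41 and 0.17 to 0.29. Of the 10 members, those called without leukocyte-marked wells in the 4 comparisons numbered 1, 1, 3 and 1 higher (26%, 29.6%, 34.4% and 27.6% of all genes) and 0, 1, 1 and 2 lower (33%, 32.2%, 29.6% and 29%). On the first date they numbered 2, 1, 3 and 2 higher (28.9%, 30.8%, 35.3% and 30.1% of all genes) and 3, 1, 2 and 1 lower (42%, 35.8%, 34.1% and 37.1%). On the second date they numbered 4, 7, 5 and 1 higher (29.8%, 31.9%, 35.1% and 33.4%) and 1, 1, 1 and 4 lower (31.2%, 32%, 29.6% and 29.7%). The log2 ratio of H2-DMa in KO over WT GFPlo turned to −0.043 on the first date. That of Ctsl in KO GFPhi over GFPlo ran from −1.15 without pool 12 to 0.62 without pool 11. The median rho with surface class II turned to −0.079 for H2-DMb1 after thinning, and for Ctsl it ran from −0.14 without pool 11 to 0.0083 without pool 9.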

Other observations

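The surface class II intensity was also set against other measures of the same cells. Its median Spearman's rho over the 8 sets of group and sort date was 0.19 with Aire, 0.11 with GFP intensity, 0.13 with forward scatter and −0.0021 with the total counts of the cell. The summed class II message had a median rho of 0.35 with Aire, 0.09 with GFP intensity, 0.03 with forward scatter and 0.25 with total counts. The genes outside the 10 whose CPM was most like surface class II were Mfsd11 (median rho 0.42, above 0 in 8 of 8 sets), Hadh (0.36), Sat1 (0.34), Pja2 (0.34), Stx4a (0.32), Iffo2 (0.31), Npc2 (0.31) and Pde4dip (0.31). Hadh encodes a mitochondrial enzyme of fatty acid oxidation, Sat1 an enzyme of polyamine breakdown and Npc2 a lysosomal cholesterol-binding protein. They were picked as the highest of many genes, and after thinning to 10000 counts the medians were 0.30 for Mfsd11, 0.14 for Hadh and 0.31 for Npc2.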
